A study of Mus musculus with 2 samples.

Results

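Accessibility at 9 loci of striatal dopamine signaling was followed in single-nucleus ATAC-seq data from mouse brain. These are the dopamine receptor genes Drd1 and Drd2, the kinase gene Ankk1 beside Drd2, the adenosine receptor gene Adora2a, the G protein regulator Rgs9, the synapse gene Syndig1l, the homeobox gene Six3 and the neuropeptide precursor genes Tac1 and Penk. They were chosen with earlier results of these data known, and they are 9 of the 21911 protein-coding genes of the annotation. For each locus, the deposited fragments that overlapped the gene body or the 2 kb upstream of its start were counted and expressed per 1000000 fragments of the same nuclei (CPM). The Tn5 transposase inserts adapters where chromatin of a nucleus is accessible, so a higher CPM means that more of the cut DNA of those nuclei came from the locus.

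Nuclei came from flash-frozen brains of wild-type young adult male mice. The sham library was made from 4 brains of mice that had sham surgery, and the stroke library from the ipsilateral hemispheres of 4 mice whose middle cerebral artery had been occluded and reperfused 48 h before, which blocks and then restores flow in the artery that supplies the lateral cortex and much of the striatum. Olfactory bulbs and cerebellum had been removed. Brains were pooled within each condition, so that each condition had 1 library, no sham and stroke values had a replicate, and no p-value is given. The intervals are 95% intervals for counting error only: exact Poisson for CPM, exact binomial for shares and exact conditional binomial for ratios. Sham brains and ipsilateral stroke hemispheres also differ in the regions they hold, which cannot be told apart from the stroke itself.

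Called barcodes were kept where over 20% of their fragments lay in peaks, which was 6817 of 6979 in the sham library and 5054 of 8740 in the stroke library. The kept nuclei had a median of 10356 and 9898 fragments, and a median of 38.8% and 33.2% of fragments in peaks. The libraries shared 42 kept barcode sequences, and no doublets were removed. The stroke library thus gave fewer kept nuclei with a smaller share of fragments in peaks, which bears on each comparison between the libraries.

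Most neurons of the striatum are spiny projection neurons, inhibitory cells that receive dopamine from the midbrain. Those of the direct pathway carry the D1 receptor and the precursor of substance P (Tac1), and those of the indirect pathway carry the D2 receptor, the adenosine receptor coded by Adora2a and the precursor of the enkephalins (Penk). D1 receptors raise cAMP and D2 receptors lower it, and both kinds of neuron use Rgs9 to shorten G protein signals.

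To avoid judging the 9 loci with themselves, striatal nuclei were gated on 14 other genes of the striatum, among them Ppp1r1b, Pde10a, Adcy5 and Bcl11b. A nucleus was called striatal where its fragments over these genes exceeded their expected number by at least 1.5 times with a Poisson tail under 0.001, and where no other class fitted better. This gave 610 sham nuclei (8.95%, 8.28% to 9.65%) and 238 stroke nuclei (4.71%, 4.14% to 5.33%), a stroke over sham ratio of 0.526 (0.451 to 0.612). The ratio was 0.327 with all called barcodes and 0.256 with a stricter gate. The summed marker lists of the 9 other classes lay between 0.442 and 0.961 of their level in the remaining nuclei in both libraries. The gate left out nuclei that another class fitted better, so ratios below 1 follow in part from its construction and do not show that the gated nuclei are free of other cells. No class was called for 67.9% of sham and 71.6% of stroke nuclei, and nuclei left out of the gate are therefore not free of striatal neurons. A gate on the 9 members instead took 277 sham and 109 stroke nuclei, and it shared 199 and 45 nuclei with the first gate, which is 32.6% and 18.9% of the first gate and 71.8% and 41.3% of the second.

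The most accessible 300-base window of each locus was found in striatal nuclei gated on the other members, by its number of Tn5 cut ends. The windows of Drd2 and Syndig1l lay in introns, 49040 and 12434 bases downstream of the gene start. Those of the other loci overlapped exons: the windows of Drd1, Adora2a, Rgs9, Tac1 and Penk lay within 140 bases of the gene start, that of Six3 lay 24 bases from a downstream transcript start, and that of Ankk1 overlapped coding sequence 10998 bases from its start. The intronic windows are printed as the ones that lay outside exons. Stretches upstream of Drd1 and Rgs9 are printed because these were the loci past 1.5-fold between the libraries in striatal nuclei. Sequences run 5′ to 3′ on the strand of the gene, and capitals mark the motif matches named after them.
Drd2 intron, chr9:49389517-49389816, mm10, plus strand: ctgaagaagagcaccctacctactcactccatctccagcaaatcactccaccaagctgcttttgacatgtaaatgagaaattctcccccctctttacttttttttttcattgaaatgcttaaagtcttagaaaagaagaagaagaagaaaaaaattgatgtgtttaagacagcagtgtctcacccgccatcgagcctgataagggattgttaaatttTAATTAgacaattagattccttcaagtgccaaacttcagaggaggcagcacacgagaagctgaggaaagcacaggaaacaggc
Syndig1l intron, chr12:84686247-84686546, mm10, minus strand: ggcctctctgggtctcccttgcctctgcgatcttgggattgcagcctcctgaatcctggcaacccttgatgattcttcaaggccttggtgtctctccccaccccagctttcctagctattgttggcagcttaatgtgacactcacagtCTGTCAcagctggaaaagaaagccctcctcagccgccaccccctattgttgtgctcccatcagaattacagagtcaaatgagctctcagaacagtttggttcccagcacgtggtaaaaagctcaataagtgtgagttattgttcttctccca
Drd1 upstream, chr13:54055706-54055908, GRCm38.p6, minus strand: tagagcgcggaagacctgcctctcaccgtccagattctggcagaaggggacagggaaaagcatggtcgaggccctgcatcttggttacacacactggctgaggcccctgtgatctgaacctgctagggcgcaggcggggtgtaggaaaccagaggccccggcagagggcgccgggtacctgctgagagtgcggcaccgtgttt
Rgs9 upstream, chr11:109298182-109298431, GRCm38.p6, minus strand: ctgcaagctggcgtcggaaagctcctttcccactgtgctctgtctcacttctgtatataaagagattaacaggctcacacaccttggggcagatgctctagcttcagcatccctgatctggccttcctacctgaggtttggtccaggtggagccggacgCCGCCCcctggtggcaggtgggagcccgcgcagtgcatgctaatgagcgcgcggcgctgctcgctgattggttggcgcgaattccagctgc

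The upstream stretches were cut from the RefSeq promoter table at the bases before both the RefSeq and the GENCODE start. RefSeq promoters were at hand for Drd1, Drd2, Rgs9, Six3 and Tac1. Each window and stretch was searched on both strands for the CRE (TGACGTCA), AP-1 (TGANTCA), NBRE (AAAGGTCA), forkhead (GTAAACA), homeodomain (TAATTA), MEIS (TGACAG) and GC box (GGGCGG) letters. The Drd2 window held the homeodomain letters, which 5.29% of 32851 RefSeq promoters of the same length hold, as did the windows of Tac1 and Penk. The Syndig1l window held the MEIS letters, which 19.2% of promoters hold, on its other strand. Promoters are not a matched background for these 2 intronic windows, which had 40.7% (Drd2) and 50.7% (Syndig1l) G and C bases. Their shares therefore do not show that these matches are rare for such DNA. The Rgs9 stretch held a GC box on its other strand, which 35.7% of promoters hold, and the Drd1 stretch held none of the 7 motifs. The windows of Drd1, Adora2a, Rgs9 and Tac1 held the GC box and that of Penk the AP-1 letters, which 7.81% of promoters hold. A match describes the letters and does not show a bound factor.

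Within the intronic Drd2 window, striatal nuclei of the sham library had 4.57 cut ends per 1000000 cut ends (EPM) and other nuclei 0.279, a ratio of 16.4 (10.9 to 25.0). Intervals on cut ends count both ends of a fragment as if independent and are therefore too narrow. In the stroke library the values were 3.37 and 0.453, a ratio of 7.43 (4.21 to 12.7). The intronic Syndig1l window had 6.97 against 0.597 in sham and 5.45 against 0.634 in stroke, ratios of 11.7 (8.72 to 15.7) and 8.60 (5.49 to 13.2). Among the windows at gene starts, the sham ratios were 1.93 at Drd1, 1.93 at Adora2a, 1.96 at Rgs9, 3.53 at Penk and 6.66 at Tac1. Those of Six3 and Ankk1 were 6.64 and 12.1. In stroke all 7 were lower: 1.27 (0.771 to 1.98) at Drd1, 1.23 (0.598 to 2.26) at Adora2a, 1.69 at Rgs9, 2.57 at Penk, 4.50 at Tac1, 1.91 (0.956 to 3.49) at Six3 and 5.31 at Ankk1, and the intervals of Drd1, Adora2a and Six3 included 1. Because the windows were chosen by their cut ends in nuclei gated as striatal, these ratios are a description. The cut ends that chose them came mostly from the sham library, for example 43 sham and 8 stroke ends at Drd1. Lower stroke values in these windows therefore follow in part from the choice.

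Over whole loci, 8 of the 9 members were at least 2-fold higher in striatal than in other nuclei in both libraries, against 0.727% of the 20087 genes tested. Their median ratio was 3.98 in sham and 2.66 in stroke, where the median over all genes was 0.965 and 0.975. All 9 members had at least 20 fragments and were tested. Drd1 was the exception in the count, since it was past 2-fold in the sham library only. The count was 5 after thinning to 3000 fragments and 5 in promoters alone. The share of all genes given above holds for the main setting only.

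**Figure D1:**
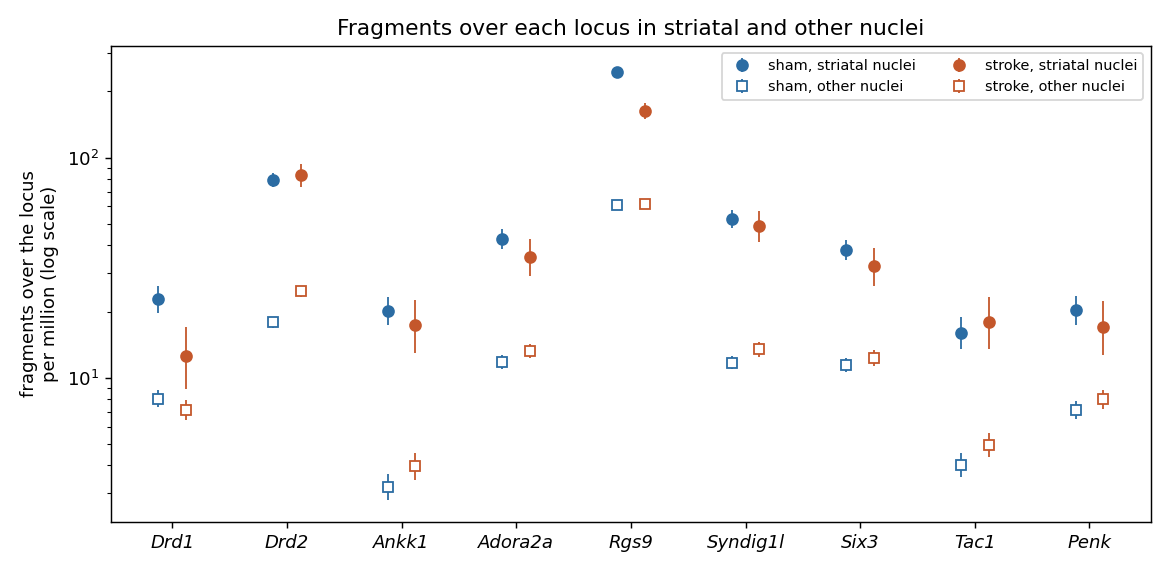
CPM over each locus (log axis) in nuclei gated as striatal on 14 other genes (filled circles) and in all other kept nuclei (open squares), for the sham and the stroke library; bars are 95% Poisson intervals for counting error. The filled circles lie above the open squares at each locus, least so for Drd1 in the stroke library, at 12.5 against 7.17 CPM.

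Drd2, the receptor of the indirect pathway, had 79.5 CPM in striatal and 17.9 in other nuclei of the sham library, a ratio of 4.44 (4.04 to 4.88). In the stroke library it had 83.1 and 24.7 CPM, a ratio of 3.36 (2.93 to 3.85). The striatal level was nearly the same in both libraries, while the level of the other nuclei differed.

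Drd1, the receptor of the direct pathway, had 22.8 and 8.05 CPM in sham, a ratio of 2.83 (2.39 to 3.33), and 12.5 and 7.17 CPM in stroke, a ratio of 1.75 (1.22 to 2.43). Striatal nuclei were highest of the 10 classes in both libraries. The next class was the Zic-marked inhibitory class in sham, at 16.8 CPM, and the Adarb2 interneuron class in stroke, at 8.91 CPM, and their intervals overlapped that of the striatal nuclei. Drd1 therefore separated the classes least well of the receptor loci.

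Ankk1 codes for a kinase of unsettled function and lies tail to tail with Drd2, with 7016 bases between their ends. It had 20.2 CPM in striatal and 3.21 in other nuclei of the sham library, a ratio of 6.29 (5.13 to 7.72), which was the highest of the 9. The stroke values were 17.3 and 3.97 CPM, a ratio of 4.37 (3.17 to 5.93). Astrocyte nuclei were the lowest class in the sham library, at 1.30 CPM from 4 fragments. By this ratio Ankk1 ranked 7 among all genes in sham and 17 in stroke.

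Adora2a, whose receptor raises cAMP against the D2 receptor, had 42.8 and 11.8 CPM in sham, a ratio of 3.63 (3.20 to 4.10). Its stroke values were 35.3 and 13.2 CPM, a ratio of 2.66 (2.16 to 3.26).

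Rgs9, which speeds the shutting off of G protein signals, had the most fragments of the 9. It had 246 CPM in striatal and 60.7 in other nuclei in sham, a ratio of 4.06 (3.85 to 4.27), and 163 and 61.4 CPM in stroke, a ratio of 2.66 (2.41 to 2.92). The level over all other nuclei hides differences between their classes, where the stroke over sham ratio was 1.49 in glutamatergic, 0.666 in Lhx6 interneuron and 0.599 in Zic-marked nuclei, beside 0.662 in striatal nuclei.

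Syndig1l, a gene of a synapse-related family, had 52.8 and 11.7 CPM in sham, a ratio of 4.50 (4.00 to 5.05), and 48.7 and 13.5 CPM in stroke, a ratio of 3.61 (3.01 to 4.32). Six3, a homeobox factor needed for indirect pathway neurons, had 38.1 and 11.4 CPM in sham, a ratio of 3.33 (2.93 to 3.80). In stroke Six3 had 32.1 and 12.3 CPM, a ratio of 2.61 (2.09 to 3.23). Both loci also hold other annotated genes, 1 at Syndig1l and 9 at Six3 (Six3os1 among them), whose fragments cannot be told apart from theirs.

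Tac1 had 16.1 and 4.03 CPM in sham and 18.0 and 4.95 CPM in stroke, ratios of 3.99 (3.23 to 4.90) and 3.63 (2.66 to 4.87). Penk, which overlaps the transcript A830012C17Rik, had 20.3 and 7.16 CPM in sham and 17.0 and 7.99 CPM in stroke, ratios of 2.83 (2.37 to 3.37) and 2.13 (1.57 to 2.84). After thinning, the stroke ratio of Penk was 0.947 (0.113 to 3.50). The ratios of Tac1 were above those of Penk with overlapping intervals, and with the gate on the other members the order was the opposite, Penk at 3.41 and 2.78 and Tac1 at 2.30 and 1.45.

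Levels of different loci are comparable only per kb of locus. In sham striatal nuclei, Drd1 had 3.49, Rgs9 3.29, Penk 2.79, Syndig1l 2.24, Six3 2.16, Adora2a 2.15, Ankk1 1.46, Tac1 1.24 and Drd2 1.14 CPM per kb. The intervals of neighbours in this order overlapped, except between Adora2a and Ankk1. In stroke striatal nuclei the order began with Penk at 2.33 and Rgs9 at 2.18 CPM per kb, and Drd1, at 1.92, came after Syndig1l at 2.07. Drd2 remained the lowest, at 1.19. A per kb level averages a long locus such as Drd2, with a window of 69.6 kb, over much closed DNA.

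With the gate built on the other members in place of the 14 genes, Drd2 had 85.5 CPM in striatal and 22.5 in other nuclei of the sham library and 101 and 26.7 in the stroke library. Its ratios were 3.80 in both libraries. Tac1 had 11.8 against 5.13 CPM in sham and 8.19 against 5.65 in stroke, and its stroke ratio of 1.45 (0.740 to 2.57) and that of Drd1 of 1.24 (0.669 to 2.1) had intervals that include 1. The other 7 members were past 2-fold in both libraries with this gate too.

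Striatal nuclei were then divided into a direct and an indirect side by their fragments over direct-side genes (Drd1, Tac1, Isl1, Ebf1, Pdyn and Eya1) and indirect-side genes (Drd2, Ankk1, Adora2a, Penk, Gpr6, Sp9 and Grik3). A nucleus went to a side where that list was at least 2 times the other relative to expectation, with at least 2 fragments, and the reported locus was always left out of its own list, Drd2 and Ankk1 together. With the full lists, 32.6% of sham and 31.9% of stroke striatal nuclei were on the direct side and 34.9% and 32.8% on the indirect side, and the shares of the sides were alike in both libraries within their intervals. The remainder, 32.5% and 35.3%, had too few fragments over these genes or no clear side.

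Drd1, Drd2, Ankk1, Adora2a, Tac1 and Penk were each at least 2-fold apart between the sides in both libraries. That is 6 of the 9 members, against 0.287% of the 13939 genes tested in both libraries. These 6 are the members on the side lists, and Rgs9, Syndig1l and Six3, on neither list, were not 2-fold apart. The 13939 genes leave out all genes of the side lists, and their sides were set by the full lists. The share is therefore one of genes outside the lists, and not a matched background for the 6. The count of 6 did not hold under every setting. It was 1 with a stricter gate, 0 after thinning, 0 in promoters alone and 1 with the gate on the members, and the stroke ratios of Drd1 (stricter gate) and Ankk1 (gate on the members) then pointed the other way. In the values given here, the direction of each of the 6 was that of the pathway to which its gene is assigned.

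**Figure D2:**
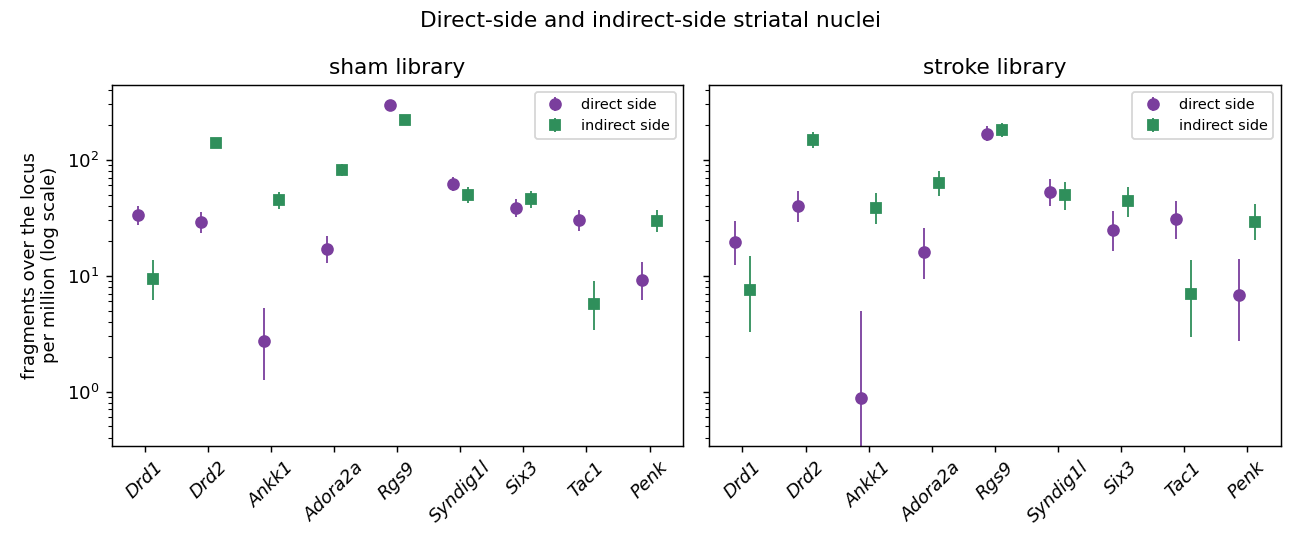
CPM over each locus (log axis) in direct-side (circles) and indirect-side (squares) striatal nuclei of the sham and the stroke library, with the plotted locus left out of the lists that set the sides; bars are 95% Poisson intervals. Drd1 and Tac1 are higher on the direct side, Drd2, Ankk1, Adora2a and Penk on the indirect side, and Syndig1l lies close together.

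On the indirect side, Drd2 had 139 CPM in sham and 149 in stroke, against 29.0 and 39.9 on the direct side. Its ratios of indirect to direct side were 4.80 (3.84 to 6.07) and 3.74 (2.68 to 5.32). Ankk1 had 44.9 and 38.7 CPM on the indirect side against 2.75 and 0.887 on the direct side, where only 9 sham fragments and 1 stroke fragment fell. The Ankk1 ratio was 16.3 (8.35 to 36.5) in sham and 43.6 (7.42 to 1762) in stroke, an estimate that rests on that 1 fragment.

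Adora2a had 81.8 CPM on the indirect and 16.9 on the direct side in sham, a ratio of 4.83 (3.61 to 6.57), and 62.9 and 16.0 in stroke, a ratio of 3.94 (2.29 to 7.14). Penk had 29.8 and 9.16 CPM in sham, a ratio of 3.25 (2.13 to 5.10), and 29.3 and 6.81 in stroke, a ratio of 4.30 (1.87 to 11.5). These loci were accessible at a few times the level of the other side, with less contrast than Ankk1.

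Drd1 had 33.2 CPM on the direct and 9.35 on the indirect side in sham, a ratio of 3.55 (2.33 to 5.58). In stroke it had 19.7 and 7.55 CPM, a ratio of 2.61 (1.12 to 6.77). Tac1 had 30.4 and 5.73 CPM in sham, a ratio of 5.30 (3.18 to 9.34), and 30.8 and 6.89 CPM in stroke, a ratio of 4.48 (2.01 to 11.3). Over the whole locus, the direct-side stroke over sham ratio was 1.02 (0.649 to 1.55) for Tac1 and 0.593 (0.357 to 0.944) for Drd1. These intervals overlap. Within Tac1 on the direct side, the 300-base window had 4.41 EPM in sham and 1.03 in stroke, from 27 and 2 cut ends. The locus outside this window and beyond 1 kb of the start had 20.2 and 22.1 EPM.

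Rgs9 had 300 CPM on the direct and 219 on the indirect side in sham, a direct over indirect ratio of 1.37 (1.24 to 1.51). In stroke it had 168 and 181 CPM, a ratio of 0.927 (0.752 to 1.14). Syndig1l had 61.7 and 49.98 CPM in sham and 52.5 and 49.2 in stroke. Six3 had 38.3 CPM on the direct and 45.8 on the indirect side in sham, and 24.8 and 43.7 in stroke, an indirect over direct ratio of 1.195 (0.932 to 1.53) and 1.76 (1.07 to 2.96). Only at Rgs9 in sham and Six3 in stroke did the interval of these ratios exclude 1.

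The same pairing was visible in single nuclei. In sham striatal nuclei, Ankk1 had a fragment in 35.3% of nuclei with a Drd2 fragment (29.4% to 41.6%) and in 5.03% of those without (3.01% to 7.83%). In stroke the shares were 31.2% and 4.23%. Drd2 in turn had a fragment in 32.6% of sham nuclei with a Drd1 fragment (25.0% to 41.0%) and in 43.9% of those without (39.4% to 48.5%). In stroke these shares were 26.7% (12.3% to 45.9%) and 42.3% (35.5% to 49.3%). The intervals of this pair overlapped in both libraries. Nuclei with a fragment were deeper: the median was 15817.5 fragments in sham nuclei with a Drd2 fragment and 13701.5 in those without. The part of depth in these shares was not tested.

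**Figure D3:**
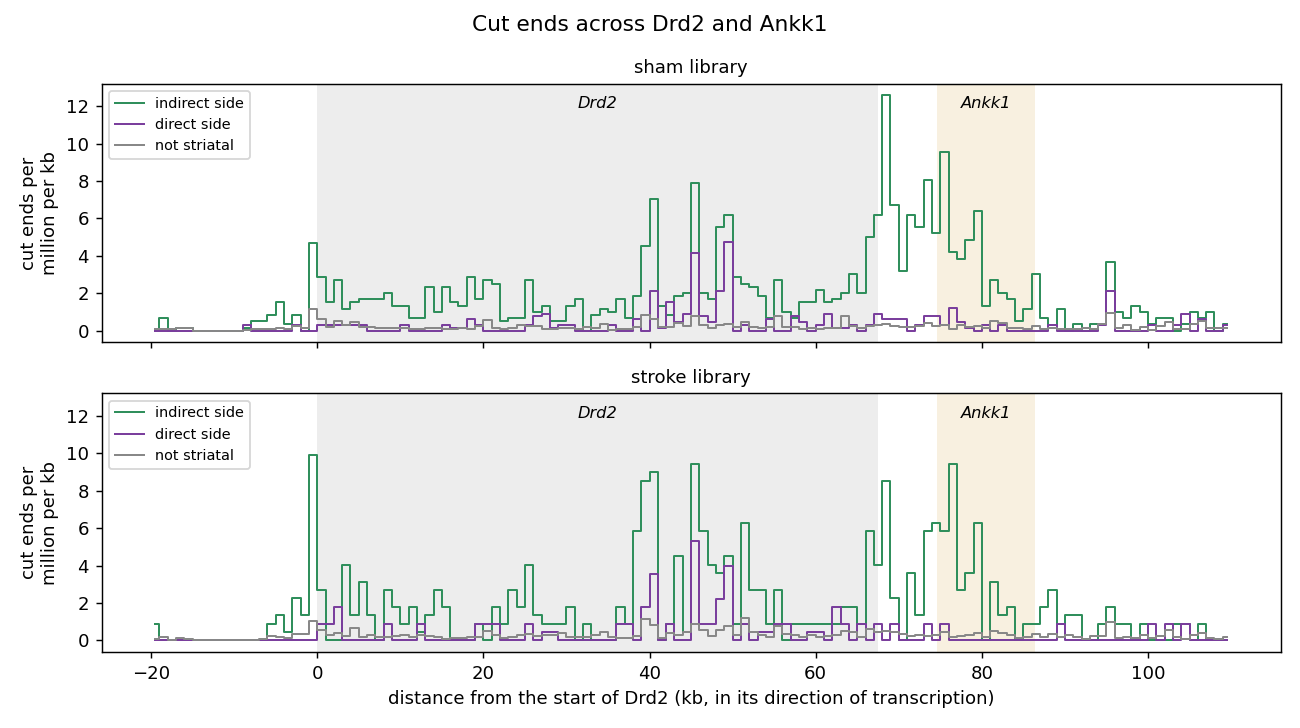
Tn5 cut ends per 1 kb bin, in EPM, against distance from the start of Drd2 in kb, for indirect-side, direct-side and not striatal nuclei, with the sham library above and the stroke library below; shading marks the gene bodies. In sham the indirect-side line stands highest in the gap between the genes, and in stroke its highest bin is just upstream of the start of Drd2, followed by bins within Ankk1 and in an intron of Drd2; the direct-side line stays low across Ankk1, while both sides have signal in the introns of Drd2 near 45 kb.

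Across the neighbouring pair, the stretch between the genes (chr9:49408178-49415193) was also far more accessible in striatal than in other nuclei. Sham striatal nuclei had 23.4 EPM there and other nuclei 1.94, a ratio of 12.1 (10.3 to 14.2). On the indirect side it had 49.6 and on the direct side 4.58, a ratio of 10.8 (7.42 to 16.3). In stroke the striatal value was 14.8 against 2.50, a ratio of 5.91 (4.60 to 7.54), and the sides had 29.7 and 1.77, a ratio of 16.7 (6.23 to 63.2). The striatal value was thus lower in stroke, with a stroke over sham ratio of 0.631 (0.498 to 0.793), and 0.598 (0.451 to 0.784) on the indirect side, where Drd2 itself had 1.07. This stretch was looked at after its profile was seen.

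Of the windows of most cut ends in Drd2 and Ankk1, that of Ankk1 differed between the sides beyond counting error in sham. It had 26 cut ends, or 4.36 EPM, on the indirect side in sham and 0 on the direct side, where 3 cut ends would be 0.458 EPM. The ratio has a lower interval limit of 7.20. In stroke it had 3 and 0 cut ends, too few to show a difference. The intronic Drd2 window printed above had 5.87 EPM on the indirect and 3.51 on the direct side in sham, a ratio of 1.67 (0.959 to 2.96), and 5.40 and 2.22 in stroke. Its intervals between the sides included 1 in both libraries, unlike those of the whole Drd2 locus.

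The comparison of stroke with sham asks whether accessibility at these loci differed after ischemia. Over all kept nuclei, no member was past 1.5-fold in either direction. Of all 20979 genes tested, 11.5% were at least 1.5-fold higher and 0.372% at least 1.5-fold lower. Drd1 had 9.84 CPM in sham and 7.48 in stroke, a ratio of 0.760 (0.671 to 0.861), and Rgs9 had 83.3 and 67.4, a ratio of 0.809 (0.776 to 0.843). Drd2 had 25.4 and 28.2, a ratio of 1.11 (1.03 to 1.19), and the remaining 6 lay between 0.900 and 1.04. The median was 0.9301 over the members and 0.981 over all genes. In these sums, fewer striatal nuclei and fewer fragments per striatal nucleus cannot be told apart.

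Within striatal nuclei, 2 of the 9 members were past 1.5-fold, both lower in stroke: Drd1 and Rgs9. Of 17602 genes tested there, 5.88% were at least 1.5-fold lower and 6.8% at least 1.5-fold higher, so that many genes pass this fold at this depth. Drd1 had 22.8 CPM in sham (204 fragments) and 12.5 in stroke (39 fragments), a ratio of 0.550 (0.380 to 0.777). Rgs9 had 246 CPM (2206 fragments) and 163 CPM (508 fragments), a ratio of 0.662 (0.6001 to 0.7295). Of all genes, 2.36% had a lower ratio than Drd1 and 5.62% a lower ratio than Rgs9. The count did not hold under every setting: it was 1 with all called barcodes, 1 without the deepest 5%, 1 with a looser gate and 1 when scaled to promoter fragments, where Rgs9 lay between 0.7098 and 0.739, and 5 with a stricter gate. In promoters alone Rgs9 was at 0.920. When nuclei were thinned to 3000 fragments the count was 6, and Drd1 was then at 0.892 (0.293 to 2.30). That setting called the nuclei anew from the thinned fragments, which left 229 sham and 77 stroke nuclei. With the nuclei of the full-depth gate thinned to the same number, a Drd1 fragment was found in 38 of 602 sham (6.31%, 4.51% to 8.56%) and 8 of 235 stroke nuclei (3.40%, 1.48% to 6.60%), and these intervals overlap. An Rgs9 fragment was found in 280 of these sham (46.5%, 42.5% to 50.6%) and 78 of these stroke nuclei (33.2%, 27.2% to 39.6%), without overlap. The shares of all genes given above hold for the main setting only. The counts of 5 and 6 under other settings therefore cannot be set against them.

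Over the whole locus, the other 7 members lay between 0.824 for Adora2a and 1.12 for Tac1, and each of their intervals included 1. The Drd2 ratio was 1.04 (0.902 to 1.21), that of Ankk1 0.858 (0.621 to 1.17) and that of Penk 0.837 (0.605 to 1.14). These ratios average over a locus. When the gene bodies were cut into first, middle and last parts of equal length, 2 parts of these 7 members had a cut-end interval below 1, the middle of Six3 at 0.521 (0.382 to 0.698) and the first of Drd2 at 0.761 (0.597 to 0.961), the latter close to 1 for an interval that is too narrow. The Six3 window had 5.35 EPM in sham and 1.92 in stroke, from 96 and 12 cut ends. It was chosen from 40 sham and 9 stroke cut ends, so its lower stroke value follows in part from the choice. Within 1 kb of the start, Tac1 was higher in stroke, at 4.80 and 8.50 EPM from 86 and 53 cut ends, a ratio of 1.77. Drd2 was higher there too, at 3.57 and 5.77 EPM from 64 and 36 cut ends, a ratio of 1.62. Ankk1, Adora2a, Syndig1l, Six3 and Penk were lower there, with ratios between 0.332 and 0.922. No intervals were computed for these ratios. For whole loci, the median over the members was 0.841 and over all genes 0.978. With the gate on the other members, Drd1 had 19.8 and 9.18 CPM, a ratio of 0.465 (0.243 to 0.826), and Rgs9 had 239 and 147 CPM, a ratio of 0.614 (0.516 to 0.727). Both were thus lower in stroke under either gate.

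**Figure D4:**
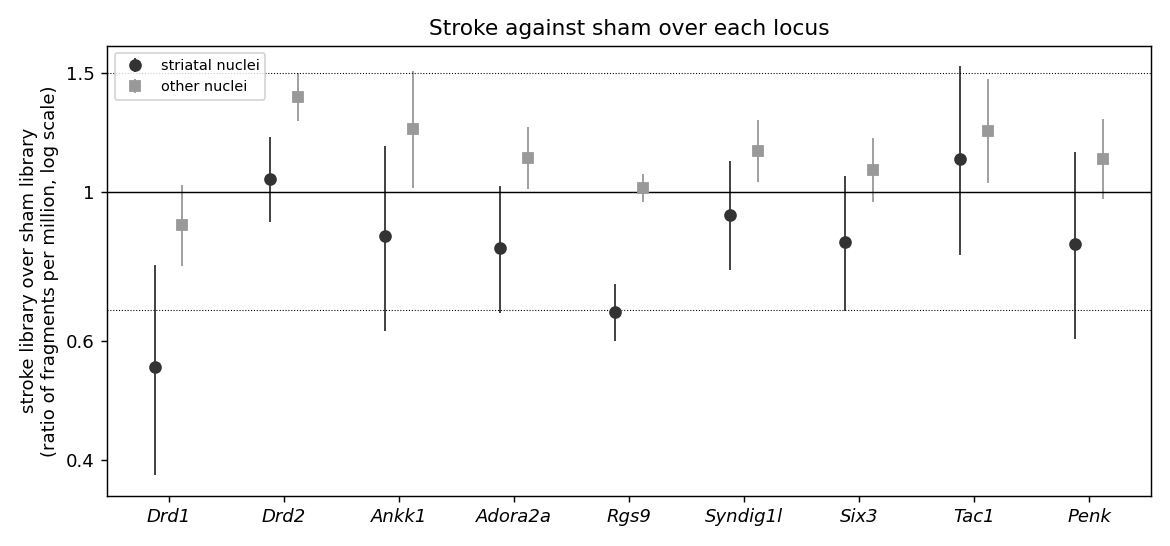
Ratio of the stroke library to the sham library in CPM over each locus (log axis), in striatal nuclei (circles) and in all other kept nuclei (squares); bars are 95% conditional binomial intervals for counting error, the line marks 1 and the dotted lines 1.5-fold. Drd1, at 0.550, and Rgs9, at 0.662, are lowest in striatal nuclei, and Drd2 is highest in other nuclei, at 1.38.

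By side, Rgs9 on the direct side had 300 CPM in sham and 168 in stroke, a ratio of 0.561 (0.475 to 0.659). On the indirect side it had 219 and 181, a ratio of 0.826 (0.701 to 0.970). The intervals of the sides did not overlap. Drd1 on the direct side had 33.2 and 19.7, a ratio of 0.593 (0.357 to 0.944). Six3 on the direct side had 38.3 and 24.8, a ratio of 0.648 (0.407 to 0.996), and on the indirect side 45.8 and 43.7. Drd2, Tac1 and Penk had intervals that included 1 on both sides. The Rgs9 values in stroke were thus lower on both sides, and more so on the direct side, while Drd1, at 0.807 (0.318 to 1.82) on the indirect side, and Six3 were lower on the direct side with indirect intervals that included 1. Drd1 is itself among the genes that set the direct side for the other loci.

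Along Rgs9, the first, middle and last parts of the gene body, of equal length, had stroke over sham ratios of 0.610 (0.539 to 0.688), 0.650 (0.578 to 0.730) and 0.722 (0.628 to 0.828). Within 1 kb of its start the values were 19.3 and 17.8 EPM, a ratio of 0.922. The printed Rgs9 stretch upstream of the start had 8.98 in sham and 6.73 in stroke striatal nuclei, and 4.25 and 3.99 in other nuclei. At Drd1, values within 1 kb of the start were 14.5 and 7.06, a ratio of 0.487, and the printed Drd1 stretch had 3.01 and 2.57. The first 1 kb of Drd1 had 10.5 EPM in sham and 3.85 in stroke. The first, middle and last parts of its gene body had ratios of 0.424 (0.283 to 0.616), 0.742 (0.3997 to 1.30) and 0.221 (0.0437 to 0.696), the last from 39 and 3 cut ends.

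**Figure D5:**
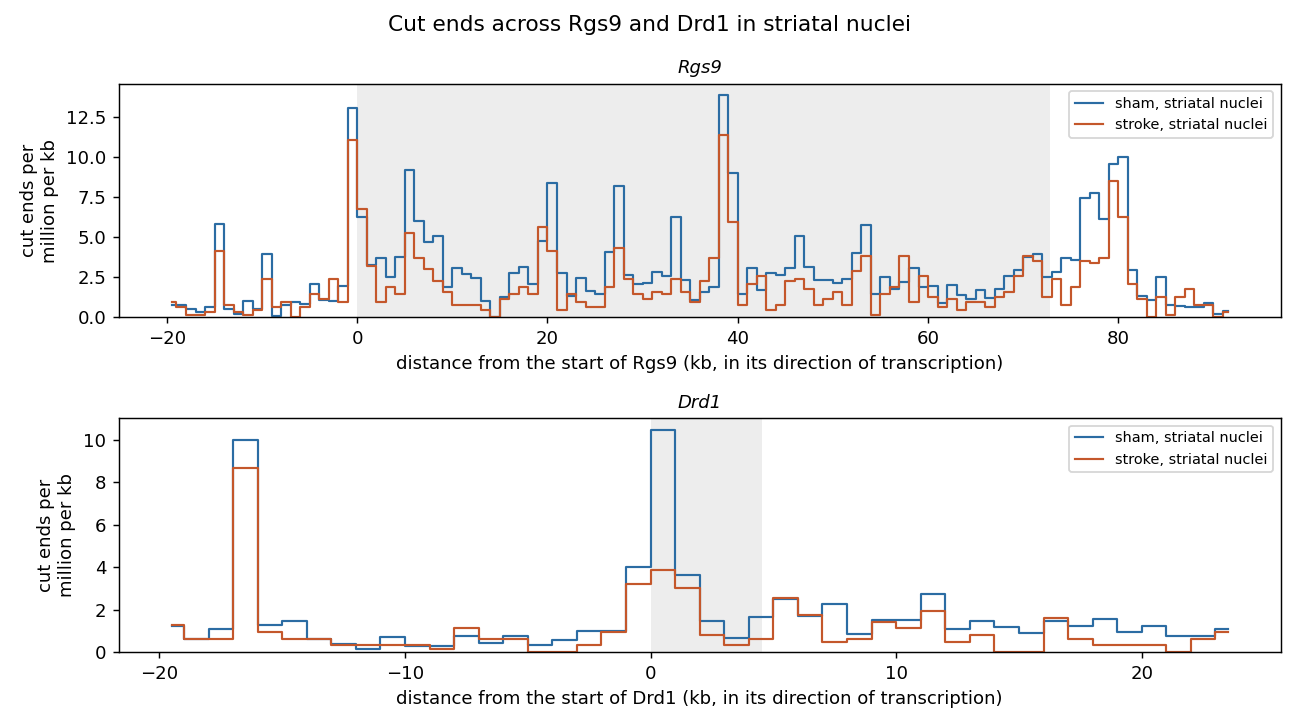
Tn5 cut ends per 1 kb bin, in EPM, against distance in kb from the start of Rgs9 (above) and of Drd1 (below), in striatal nuclei of the sham and the stroke library; shading marks the gene body. The sham line is above the stroke line across most of Rgs9, with the start alike, and at Drd1 the libraries differ most in the first 1 kb, at 10.5 and 3.85, while the bin from 17 to 16 kb upstream holds 9.98 and 8.66.

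Other values differed between the gated nuclei of the libraries too. In the stroke library, the summed level of the 9 members in striatal nuclei was 2.86 times that in other nuclei, against 3.96 in sham, and that of the 14 gate genes 3.13 times against 3.38. Striatal nuclei had a median of 37.9% of fragments in peaks in sham and 32.0% in stroke. Of the summed marker lists of the 9 other classes, 7 stood higher relative to other nuclei in stroke than in sham. Among them was the glutamatergic list, at 0.650 and then 0.780 of its level in other nuclei. Its striatal level was 393 CPM in both libraries, and the other nuclei had 605 CPM in sham and 504 in stroke. The myeloid list stood at 0.716 and 0.837 (188 and 240 CPM in striatal nuclei), and the vascular list at 0.626 and 0.694 (126 and 157 CPM). The Adarb2 interneuron list, at 0.961 and 0.853 (161 and 155 CPM in striatal nuclei), and the astrocyte list, at 0.464 and 0.442, stood lower. The astrocyte list was higher in stroke in itself, at 142 and 158 CPM in striatal nuclei and 306 and 358 CPM in other nuclei. The part of these values in the lower Drd1 and Rgs9 values was not tested.

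Outside the striatal gate, Drd2 had 17.9 CPM in sham and 24.7 in stroke, a ratio of 1.38 (1.27 to 1.498), higher than at any other member. Of all genes tested in those nuclei, 85.4% had a lower ratio, so that a ratio of this size was not unusual there. In nuclei gated as glutamatergic it had 10.7 and 28.1 CPM, from 48 and 60 fragments, a ratio of 2.63 (1.77 to 3.93). There, 99.3% of genes tested had a lower ratio. In sham Drd2 had 0.154 CPM per kb there, under the limit of 0.243 for the lowest 10% of genes. The median ratio of these genes was 1.21, against 0.961 over all genes tested there. They were picked by their sham level, the denominator of the ratio, so their higher median follows in part from the choice. The part of the low sham level of Drd2 in its ratio was not tested. In thinned glutamatergic nuclei, a Drd2 fragment was found in 3.17% of sham (1.53% to 5.76%) and 7.05% of stroke nuclei (3.57% to 12.3%). These intervals overlap. Without thinning, Penk in nuclei gated as glutamatergic had 5.79 and 15.0 CPM, a ratio of 2.59 (1.497 to 4.53), from 26 and 32 fragments. In the nuclei of no class Drd2 had 18.3 and 26.3 CPM, a ratio of 1.44 (1.31 to 1.58), with 87.6% of genes below it.

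A list of 29 other genes held genes of dopamine, opioid and cAMP signaling and the striatal transcription factor genes Foxp1, Foxp2, Isl1, Ebf1 and Sp9. Of these 29, 28 were in the annotation and had enough fragments. In striatal nuclei, 6 were at least 2-fold higher than in other nuclei in both libraries, against the 0.727% of all genes given above. They were Drd3, a D2-like receptor, at 41.8 CPM in sham and 48.4 in stroke, with ratios of 3.14 and 2.85; Gnal, the G protein subunit that couples the D1 and adenosine receptors to adenylyl cyclase, at 281 and 256; the phosphodiesterase gene Pde7b at 343 and 311; and the transcription factor genes Foxp1, Foxp2 and Isl1. The median over the 28 genes was 1.38 in sham and 1.41 in stroke. Drd4 and Drd5, the remaining receptor genes, had ratios of 1.09 and 0.954 in sham and 1.33 and 0.880 in stroke.

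Between the libraries, 1 of the 28 genes was past 1.5-fold higher in striatal nuclei and 0 were lower, against 6.8% and 5.88% of all genes, so that this count is not above the background. The gene was Th, the enzyme that makes the precursor of dopamine and a gene of midbrain and not of spiny neurons, with 13.3 CPM in sham and 30.8 in stroke, a ratio of 2.32. Its level relative to other nuclei was 0.740 in sham and 1.57 in stroke. The median ratio over the 28 genes was 0.982. By side, the delta opioid receptor gene Oprd1 had indirect over direct ratios of 2.96 in sham and 2.27 in stroke.

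The genes whose levels were most like those of the members were found over 20 points, the 10 classes in each library, which share their nuclei with each gene compared. By Pearson correlation of log2(CPM + 1), the genes most like the sum of the 9 members, among 17882, were Cacna2d3 (0.853), Fam227a (0.847) and Syt6 (0.845). Cacna2d3 and Syt6 were also among the leading 3 for Drd2, with 0.845 and 0.826 beside Gprin3 at 0.851, and for Ankk1, with 0.837 and 0.850 beside Gnal at 0.835. For Drd1 they were Gpr83 (0.828), Slc37a1 (0.803) and Htr1d (0.792), and for Rgs9 BC055324 (0.867), Fam227a (0.851) and Phactr1 (0.8498). Adora2a was most like Spo11 (0.813), Tmem208 (0.797) and Bcr (0.797), Tac1 most like Fank1 (0.836), Thsd7a (0.824) and Foxp2 (0.803), and Penk most like Cacna2d3 (0.797), Dgkb (0.774) and Gipc2 (0.769). For Six3 the 3 were Cwc22 (0.836), Pcdh17 (0.795) and Hacd2 (0.757), and for Syndig1l Lrtm1 (0.833), Mctp1 (0.832) and Def8 (0.818). Cacna2d3 had 982 CPM in sham and 820 in stroke striatal nuclei, 2.68 and 2.24 times its level in other nuclei.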

How the data were processed

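Nuclei were profiled by scATAC-seq (10x Genomics Next GEM Single Cell ATAC v2) in 1 sham and 1 stroke library. Alignment by the authors used Cell Ranger ATAC 2.1.0 and an mm10 reference, per the file headers; they deposited duplicate-free fragments, with ends shifted to the Tn5 cut sites, and counts of fragments per barcode, without normalization. The libraries held 76959104 sham and 96465679 stroke fragments. No columns of the authors' own comparisons were used.

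Fragments overlapping gene bodies of GENCODE M21 plus 2 kb upstream were counted in kept barcodes and divided by all fragments of those nuclei. Genes with at least 20 fragments over the nuclei compared were tested, which here means compared by fold: 2-fold between classes and sides, 1.5-fold between libraries. Windows of 300 bases moved in steps of 10. Classes were called from marker lists by Poisson tail; a nucleus passing several lists went to that with the smallest tail. Nucleosome signal and TSS enrichment were not computed.

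The members and lists were chosen with earlier results of these data known. The text names the members, the 3 genes most like each member and their sum in level over classes (of genes with at least 200 fragments), listed pathway genes past the fold, and others given as examples of their lists. Alternatives were all called barcodes, the study's limits on fragments in peaks (1000 to 100000, blacklist ratio under 0.025), removal of the deepest 5% as possible doublets, stricter and looser gates, thinning to 3000 fragments per nucleus, cut ends, promoters (1 kb either side of the start), scaling to promoter fragments and a gate on the members. Functions were tested on simulated data. Python 3.11.15, scipy 1.17.1 and pandas 2.3.3 were used.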

Additional observations from a re-analysis of the deposited data

Results flagged for a closer look

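At 3 of the 9 members the stroke over sham ratio lay above 1 in some classes and below 1 in others, with counting intervals that left out 1 on both sides. The differences between classes were not tested, each ratio rests on 1 library per condition, and 90 ratios of member and class were looked at. No share of all genes that do the same is given, so the count of 3 is not a result about the members. Rgs9 had a ratio of 1.49 in nuclei gated as glutamatergic (44.1 CPM in sham, 65.6 in stroke), and ratios of 0.662 in striatal nuclei (246 and 163), 0.666 in Lhx6 interneuron nuclei (70.1 and 46.7) and 0.599 in Zic-marked nuclei (64.4 and 38.6). Syndig1l had a ratio of 1.88 in myeloid nuclei, from 26 sham and 43 stroke fragments, and of 0.177 in Zic-marked nuclei, from 20 and 2 fragments. Six3 had a ratio of 2.27 in nuclei gated as oligodendrocyte precursors, from 14 and 23 fragments, and of 0.395 in Lhx6 interneuron nuclei, from 46 and 11 fragments.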

How the results depend on the processing

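No paired analysis was possible because sham and stroke had 1 library each. Values for single members moved by less than their counting interval in 366 of 472 alternatives, moved further in 103 and reversed in 3. The stroke over sham ratio of the striatal share was 0.327 with all called barcodes and 0.256 with the stricter gate. The count of members past 2-fold in striatal nuclei, 8, was 5 when nuclei were thinned and 5 in promoters alone. The count of members past 1.5-fold between the libraries in striatal nuclei, 2, was 1 with all called barcodes, 1 without the deepest 5%, 1 with the looser gate, 1 when scaled to promoter fragments, 5 with the stricter gate and 6 after thinning; over all kept nuclei, 0 became 1 with all called barcodes. The count past 2-fold between the sides, 6, was 1 with the stricter gate, 0 after thinning, 0 in promoters alone and 1 with the gate on the members, in part because fewer members had 20 fragments in each library. Shares of all genes are given for the main setting only, so the counts under alternatives have no background beside them. Rgs9 in stroke over sham striatal nuclei ranged from 0.510 with the stricter gate to 0.920 in promoters alone, and Drd1 from 0.465 with the gate on the other members to 0.892 after thinning, below 1 in each. Among the reversed values was 0.947 for Penk in stroke striatal over other nuclei after thinning. The others were stroke ratios of indirect over direct side. They were 2.57 for Drd1 with the stricter gate, against 0.384 in the main setting, and 0.766 for Ankk1 with the gate on the members. The cause was not tested. The Ankk1 interval in that last case was 0.464 to 1.28. With 238 striatal nuclei in the stroke library, a member such as Drd1 rested on 39 fragments.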
